A study of Mus musculus with 9 samples.

Results

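The genes described here are glycerol kinase (Gk) and 9 genes around the entry of glycerol into the glycerolipids, 10 of the 19686 genes in the count table, each matched by its symbol. They are the glycerol channels Aqp9, Aqp3 and Aqp7, the kinase Gk, the glycerol 3-phosphate dehydrogenases Gpd1 and Gpd2, the acyltransferases Gpam and Dgat2, and the lipins Lpin1 and Lpin2. The list was built around Gk because Gk had been called higher in the model group than in the control group in earlier results of the same counts. The values of that comparison are therefore given for the 10 genes as a description, with no test.

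Liver RNA was sequenced from 9 male Wistar rats, 3 in each of the control, model and DSS groups, after 8 weeks of treatment and 12 h of fasting. The control group drank purified water and received saline by gavage. The model group drank 15% fructose and received saline, and the DSS group drank the same fructose and received 1.8 g/kg of the 50% methanol extract of Danggui-Shaoyao-San, a herbal formula. The labels name the treated rats DSS, and the extract and its dose come from the methods of the study. Although the organism is entered in the labels as mouse, the strain is the Wistar rat and the genes carry rat identifiers. The age of the rats, and how 3 rats were chosen from each group, are not given in the sources used here. The fructose drink serves as a model of the metabolic syndrome in these rats.

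Free glycerol released by fat tissue reaches the liver, where aquaporins let it into hepatocytes and glycerol kinase phosphorylates it to glycerol 3-phosphate. The same metabolite is also made from dihydroxyacetone phosphate, an intermediate of sugar breakdown, by the cytosolic dehydrogenase GPD1, while the mitochondrial GPD2 oxidizes it back and passes the electrons to the respiratory chain. Glycerol 3-phosphate is acylated first by GPAM and then by the AGPAT enzymes, the lipins remove the phosphate to give diacylglycerol, and DGAT2 adds the last acyl chain of triglyceride.

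Total counts per library ranged from 14345819 to 26837227, with the highest total in model replicate 1. Levels are in CPM, for which library sizes were normalized by TMM, and log2 fold changes are those fitted by edgeR. Genes were called where the FDR (Benjamini-Hochberg over all genes tested) was at most 0.01 and the log2 fold change was 0.5 or more in size. All of the 8 hepatocyte markers checked were detected, with summed levels of 137757 to 175643 CPM in control rats, 173610 to 220320 CPM in model rats and 170142 to 213504 CPM in DSS rats. The summed levels of the adipocyte, endothelial, Kupffer cell, bile duct, red blood cell and stellate markers overlapped between every pair of groups. Against control, the model group had fold changes below 0 in all 5 endothelial, all 6 Kupffer cell and all 6 stellate markers. Above and below 0 were 5 and 3 hepatocyte markers and 2 and 0 adipocyte markers. The bile duct markers stood at 2 and 1, and the red blood cell markers at 2 and 4. In the DSS group against model, 5 of 5 endothelial, 5 of 6 Kupffer cell and 4 of 6 stellate markers were above 0. So were 4 of 8 hepatocyte, 2 of 2 adipocyte, 1 of 3 bile duct and 5 of 6 red blood cell markers. In the DSS group against control, 2 of 5 endothelial, 0 of 6 Kupffer cell and 3 of 6 stellate markers were above 0. There 6 of 8 hepatocyte, 2 of 2 adipocyte, 2 of 3 bile duct and 2 of 6 red blood cell markers were above 0. Of 36 markers tested with edgeR, 0 were called in any comparison, and 6, 4 and 7 had an unadjusted p under 0.05 in model against control, DSS against model and DSS against control, where DESeq2 called 3, 1 and 2. Of all genes, 13.2, 8.02 and 24.3% had an unadjusted p under 0.05 from edgeR, and DESeq2 called more of all genes than edgeR. A change in the number of cells of a type and a change in RNA per cell cannot be told apart in these libraries.

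Gk (ENSRNOG00000034116), the enzyme that commits free glycerol to lipid synthesis or to glucose, was low in the control rats and high in both groups that drank fructose. In the control rats its level was 104, 133 and 105 CPM, in the model rats 594, 515 and 640 CPM, and in the DSS rats 648, 637 and 655 CPM. The lowest fructose-fed rat lay far above the highest control rat, and the DSS rats overlapped the model rats through model replicate 3. The mean levels of the control, model and DSS groups were 114 ± 16.5, 583 ± 63.3 and 647 ± 9.06 CPM (SD, n = 3 rats each). The log2 fold change of the model group against control, the value for which the gene was chosen, was 2.35 (standard error 0.169), and it lay between 2.28 and 2.48 with each rat left out.

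Compared with the control group, Gk was up-regulated 5.66-fold in the DSS group (log2 2.50, standard error 0.137, FDR 3.9e-05 from edgeR), and it passed both thresholds under all 14 alternatives tried. This comparison shares the control libraries with the one that chose the gene and is not independent of it. Between the DSS and model groups the log2 fold change of Gk was 0.16 (95% interval -0.17 to 0.48, FDR 0.861 from edgeR), so a change in the DSS group by more than 0.48 up or 0.17 down lay outside the interval. The hepatocyte markers did not move together beside Gk. Their sum is mostly that of Alb, at 101364, 127932 and 120471 CPM in the means of the control, model and DSS groups, whereas Cps1, Cyp2e1 and Ass1 were lower in all model rats than in all control rats (Cps1 at 2027 to 2983 against 3781 to 4450 CPM, Cyp2e1 at 1111 to 1241 against 1671 to 1986 CPM and Ass1 at 1212 to 1458 against 1965 to 2150 CPM), with FDRs from edgeR of 0.123, 0.117 and 0.116. Fold changes in the model group against control were above 0 in 5 of the 8 hepatocyte markers and below 0 in 3. Tf was higher in all model rats, at 39724 to 40829 against 24535 to 34627 CPM in control. These 2 groups had no overlap in 21.1% of all genes. In the DSS rats Cps1 was at 3171 to 4437 CPM and Cyp2e1 at 2013 to 3051 CPM. Ass1 was at 918 to 1426 CPM there and Tf at 32329 to 42824 CPM. Apoa1 was at 1525 to 2077 CPM in the DSS rats and 853 to 1092 CPM in the control rats. Ttr was at 8598 to 10617 CPM and 7062 to 7927 CPM. The DSS rats lay above all control rats in Apoa1, Ttr and Cyp2e1 and below them in Ass1. The DSS and control groups had no overlap in 30.1% of all genes. Against control, fold changes in the DSS group were above 0 in 6 of the 8 hepatocyte markers and below 0 in 2. The part of hepatocyte content in the level of Gk was not tested.

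**Figure D1:**
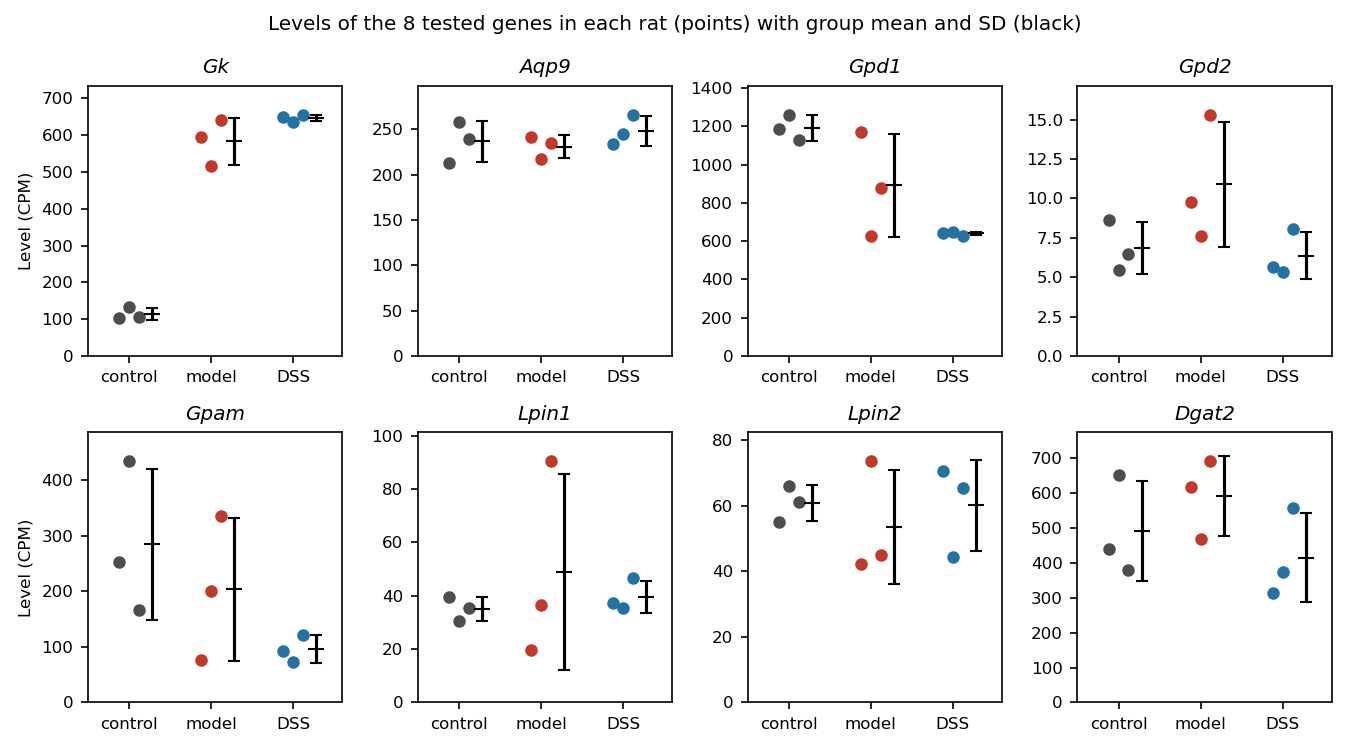
Levels in CPM (vertical axes, each starting at 0) of the 8 members with enough counts to be tested, in the control, model and DSS groups. Each point is 1 rat and the black bar is the group mean with its SD. Gk stands at 104 to 133 CPM in the control rats and at 515 to 655 CPM in the rats of the other groups, whereas Gpd1 stands at 629 to 648 CPM in the DSS rats, below every control rat.

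The DSS rats were close to each other in Gk and Gpd1. The coefficient of variation over the 3 DSS rats was 1.40% for Gk and 1.54% for Gpd1, against a median of 10.1% over the 1218 genes with a mean of at least 100 CPM. These were the lowest of the 8 tested members in the DSS group. Aqp9 was at 6.61%, Gpam at 26.5% and Dgat2 at 30.6%. Lpin1, Lpin2 and Gpd2, with levels under 100 CPM, were at 15.1, 23.1 and 23.4%. No share of genes with values as low is given, and each SD rests on 3 rats. In the model group the coefficient of variation was 10.9% for Gk and 30.3% for Gpd1, where the median of the 1218 genes was 15.4%.

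Of the channels, Aqp9 (ENSRNOG00000061883), the aquaglyceroporin of hepatocytes, was well detected and varied little. Its level was 213, 258 and 239 CPM in the control rats, 242, 217 and 234 CPM in the model rats and 234, 245 and 266 CPM in the DSS rats. The 3 groups overlapped, and the log2 fold changes were -0.03 in the model group against control, 0.11 in the DSS group against model (95% interval -0.19 to 0.41, FDR 0.888 from edgeR) and 0.06 in the DSS group against control (95% interval -0.21 to 0.34, FDR 0.79). The sign of the last value turned to -0.07 with library size alone, a scaling that moved the median of all genes by -0.136.

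Aqp3 (ENSRNOG00000009797), a glycerol channel of epithelia, and Aqp7 (ENSRNOG00000009686), the glycerol channel of fat cells, were at the limit of detection. Aqp3 had 1 count over the 9 libraries, in model replicate 1. Aqp7 had 14 counts in all, at most 4 in a library and none in 3 of them. A count of 0 allows a level of up to 0.12 to 0.2 CPM (3 counts, by library, counting error only), and both genes were removed by the filter on low counts, so 8 of the 10 members were tested. Of the 4 adipocyte markers in the table, Adipoq and Retn were also under 1 CPM in every library, whereas Cfd (14.6, 16.0 and 16.9 CPM) and Cidea (11.3, 14.8 and 16.5 CPM, means of the control, model and DSS groups) were detected.

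Gpd1 (ENSRNOG00000056457), the cytosolic dehydrogenase between dihydroxyacetone phosphate and glycerol 3-phosphate, was lowest in the DSS rats. Its level was 1186, 1259 and 1127 CPM in the control rats, 1167, 629 and 877 CPM in the model rats and 643, 648 and 629 CPM in the DSS rats. The DSS rats lay below all control rats, and the model rats spread over the whole range between them. Compared with the control group, Gpd1 was down-regulated in the DSS group (log2 fold change -0.90, standard error 0.113, FDR 0.00295 from edgeR), while the model group stood at -0.42 (standard error 0.228) against control. Relative to the model rats the log2 fold change was -0.47 (95% interval -0.98 to 0.04, FDR 0.671 from edgeR). The call against control was lost without control replicate 2 or 3 or DSS replicate 1, 2 or 3 (FDR 0.0168, 0.0101, 0.0163, 0.0106 and 0.014), and it held without control replicate 1. It was also lost with all 9 libraries in one fit (FDR 0.0339) and with the replicate number as a block (FDR 0.0151), and its log2 fold change stayed between -1.03 and -0.85 over all alternatives.

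The counts of Gk relative to those of Gpd1 within a library do not depend on the scaling between libraries. There were 0.0881, 0.106 and 0.0929 Gk counts per Gpd1 count in the control rats, 0.509, 0.819 and 0.73 in the model rats, and 1.01, 0.983 and 1.04 in the DSS rats. The 3 groups did not overlap in this ratio. The lowest model rat was 4.81 times the highest control rat, and the lowest DSS rat was 1.20 times the highest model rat. The ratio is 1 of 4 formed with the levels known, its numerator is the gene chosen for its rise, and neither a test nor a share of other gene pairs with such a separation was computed. In the other ratios the model and DSS groups overlapped. Gpam counts per Gk count, for one, were 1.59 to 3.26 in the control rats, 0.129 to 0.523 in the model rats and 0.113 to 0.186 in the DSS rats, and the ratios of Dgat2 to Gpam and of Lpin1 to Lpin2 overlapped likewise.

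**Figure D2:**
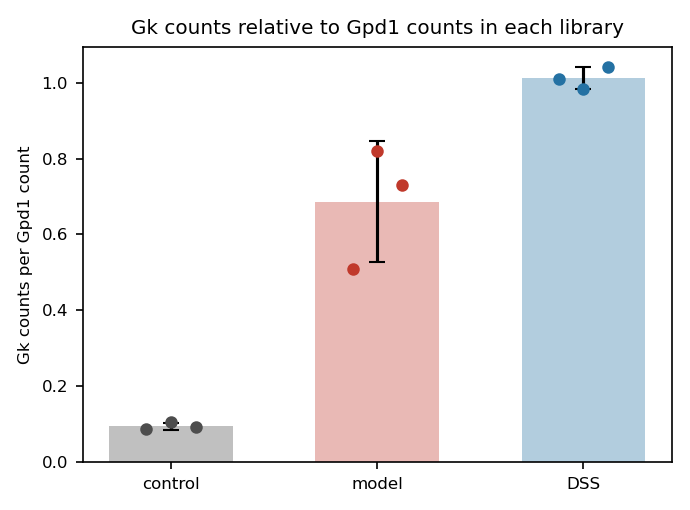
Gk counts per Gpd1 count (vertical axis, from 0) in each library, by group. Points are single rats, bars are group means and black lines are SDs. The means of the control, model and DSS groups are 0.0956, 0.686 and 1.01, and the groups do not overlap.

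Gpd2 (ENSRNOG00000033824), the mitochondrial dehydrogenase of the glycerol phosphate shuttle, had low levels and overlapping groups. The levels were 8.65, 5.43 and 6.46 CPM in the control rats, 9.76, 7.59 and 15.3 CPM in the model rats and 5.65, 5.34 and 8.06 CPM in the DSS rats. The highest value was that of model replicate 3. Relative to the model rats the log2 fold change in the DSS rats was -0.77 (95% interval -1.45 to -0.09, unadjusted p 0.0314 and FDR 0.57 from edgeR), and it became -0.44 without model replicate 3. Against control it was 0.66 (standard error 0.294) in the model group and -0.12 (FDR 0.803 from edgeR) in the DSS group.

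Gpam (ENSRNOG00000015124), the mitochondrial enzyme that adds the first acyl chain to glycerol 3-phosphate, was lower in the DSS rats than in every control rat but did not pass the thresholds. Its level was 254, 434 and 167 CPM in the control rats, 76.7, 200.2 and 335 CPM in the model rats and 91.9, 72 and 122 CPM in the DSS rats. The model rats differed by 4.37 times between the lowest, replicate 1, and the highest, replicate 3, and replicate 1 lay within the range of the DSS rats. Against control the log2 fold change in the DSS group was -1.58 (95% interval -2.53 to -0.63, FDR 0.0702 from edgeR), whereas DESeq2 gave an FDR of 9.9e-06. The value became -1.14 without control replicate 2, the highest rat, and -1.85 without control replicate 3, and the FDR over the alternatives ranged up to 0.207. Against the model group it was -1.09 (95% interval -2.16 to -0.02, unadjusted p 0.0471 and FDR 0.619 from edgeR), with -0.52 without model replicate 3 and -1.48 without model replicate 1.

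The lipins, which dephosphorylate phosphatidic acid and act also as co-regulators of transcription, showed no called difference. Lpin1 (ENSRNOG00000004377) was at 39.6, 30.6 and 35.2 CPM in the control rats, 19.8, 36.7 and 90.3 CPM in the model rats and 37.1, 35.2 and 46.4 CPM in the DSS rats. As for Gpam, model replicate 1 was the lowest and model replicate 3 the highest of the model rats, here by 4.56 times. The log2 fold change in the DSS group was -0.30 against model (95% interval -1.39 to 0.79, FDR 0.919 from edgeR), and it turned to 0.50 without model replicate 3. Against control it was 0.47 (standard error 0.471) in the model group, or -0.32 without model replicate 3, and 0.17 (FDR 0.509 from edgeR) in the DSS group.

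Lpin2 (ENSRNOG00000014876), the other lipin measured, was at 55.2, 66.2 and 61.3 CPM in the control rats, 42.1, 73.6 and 44.9 CPM in the model rats and 70.6, 44.4 and 65.4 CPM in the DSS rats. The groups overlapped, and the log2 fold changes were 0.18 in the DSS group against model (95% interval -0.41 to 0.76, FDR 0.91 from edgeR) and -0.02 against control (FDR 0.956).

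Dgat2 (ENSRNOG00000016573), which forms triglyceride from diacylglycerol, was at 439, 653 and 381 CPM in the control rats, 617, 467 and 691 CPM in the model rats and 314, 373 and 557 CPM in the DSS rats. The DSS rats overlapped both other groups. The log2 fold change in the DSS group was -0.51 against model (95% interval -1.07 to 0.05, FDR 0.677 from edgeR) and -0.24 against control (95% interval -0.88 to 0.39, FDR 0.636).

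**Figure D3:**
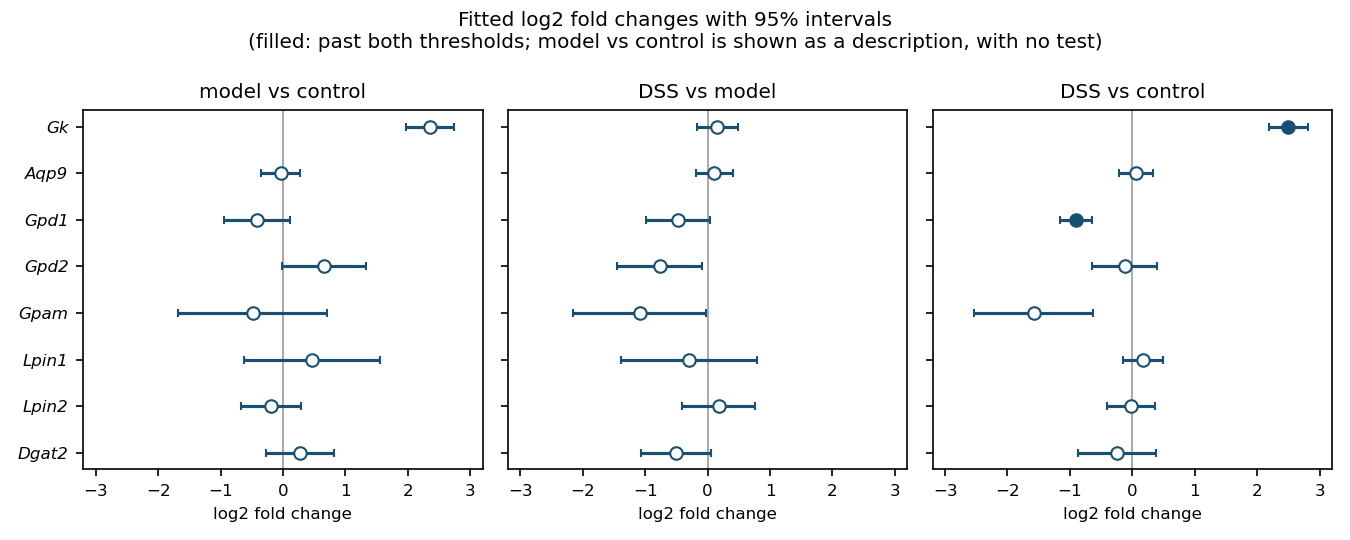
Fitted log2 fold changes (horizontal axes) of the 8 tested members in the 3 comparisons, with 95% intervals as bars. Filled points passed both thresholds, and the comparison of model with control is drawn as a description with open points. Gk stands at 2.35 and 2.50 against control and at 0.16 between the DSS and model groups, and Gpd1 at -0.90 in the DSS group against control.

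Between the model and control groups 0.0801% of all genes were called and 21.1% had no overlap (11.2% higher, 9.94% lower). Gk was the member called and without overlap there and was chosen for its rise, so nothing is read from its count. In the DSS group against model, 0 of 8 members were called by edgeR (0.136% of all genes, 0.056% higher and 0.08% lower) and 0 by DESeq2, and 2 had an unadjusted p under 0.05 (8.02% of all genes). No member lay apart there, whereas 14% of all genes did (6.17% higher, 7.85% lower). In the DSS group against control, Gk was called higher (0.657% of all genes) and Gpd1 lower (0.823% of all genes), and DESeq2 added Gpam. These shares are of edgeR calls, and DESeq2 called more of all genes there. In that comparison the DSS rats lay below all control rats in Gpd1 and Gpam, as they did in 15.2% of all genes tested, and above them in Gk, as in 14.9% (30.1% in either direction). The median log2 fold change of the 8 members was 0.12 in the model group against control, -0.38 in the DSS group against model and -0.07 in the DSS group against control, beside medians of 0.00, 0.00 and -0.01 over all genes. The comparisons share libraries, so these values are given side by side and were not tested against each other.

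The other genes of the pathway were taken from 5 lists with 70 genes, of which 67 were in the count table under the listed or an older symbol and 59 were tested. Between the model and control groups 0 of the 59 were called by edgeR, 13 had an unadjusted p under 0.05 (22%, beside 13.2% of all genes), and DESeq2 called 3 higher, Agpat3, Lpl and Aqp8. In the DSS group against model, 1 was called lower and 0 higher (1.69%, beside 0.136% of all genes). There 11 had an unadjusted p under 0.05 from edgeR (18.6%, beside 8.02% of all genes). In the DSS group against control, 2 were called higher and 2 lower (6.78%, beside 1.48%), and DESeq2 called 5 higher and 6 lower. There 21 had an unadjusted p under 0.05 from edgeR (35.6%, beside 24.3%). The groups had no overlap in 23.7, 20.3 and 35.6% of the 59 genes in these 3 comparisons, in the order given. The shares of all genes were 21.1, 14 and 30.1%. The lists were chosen with earlier results of these data known, so nothing is read from these shares. The shares of all genes called that are given here are of edgeR calls. With DESeq2 more of all genes were called too in each comparison, as counted further below.

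Among the 6 tested genes that handle glycerol, glyceraldehyde or triose phosphates, all 6 had fold changes below 0 in the DSS group, with a median log2 fold change of -0.36 against model and -0.43 against control, and the same gene was called in both comparisons. It was Tkfc (triokinase, ENSRNOG00000020704), which phosphorylates the glyceraldehyde released from fructose. Its level was 700.1, 799 and 837 CPM in the control rats, 716, 626 and 769 CPM in the model rats and 132, 136 and 133 CPM in the DSS rats. The DSS rats lay far below all others, with log2 fold changes of -2.39 against model (FDR 0.00163 from edgeR) and -2.55 against control (FDR 2.68e-05), and the call against model was lost without DSS replicate 1 (FDR 0.0146) or 3 (FDR 0.0105).

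Of the 14 tested genes of the acylation steps, 1 was called, Agpat3 (ENSRNOG00000001205), an acyltransferase of lysophosphatidic acid and other lysophospholipids. It was at 25.4, 29.8 and 24.3 CPM in the control rats, 60.0, 52.5 and 71.9 CPM in the model rats and 59.2, 72.7 and 64.3 CPM in the DSS rats. Both fructose-fed groups lay above all control rats and overlapped each other. The log2 fold change was 1.30 in the DSS group against control (standard error 0.121, FDR 0.000736 from edgeR), which passed under all alternatives. In the model group against control it was 1.21 (FDR 0.0244), which passed the FDR threshold with DESeq2, with all 9 libraries in one fit and with no filter on low counts, and between the DSS and model groups it was 0.09. The list as a whole had a median of 0.02 in the model group against control and of -0.02 in the DSS group against control.

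Of the 12 tested genes of lipolysis, Mgll (monoglyceride lipase, ENSRNOG00000014508), which releases glycerol from monoacylglycerol, was called lower in the DSS group than in control. It was at 52.5, 69.8 and 64.9 CPM in the control rats, 31.3, 48.9 and 42.1 CPM in the model rats and 36.9, 35.7 and 32.1 CPM in the DSS rats. The DSS and model rats all lay below the control rats. The log2 fold change was -0.84 in the DSS group (FDR 0.00679 from edgeR) and -0.62 in the model group (FDR 0.207). The first was lost without control replicate 2 or 3, without each of the 3 DSS rats, with the block and with all 9 libraries in one fit, where the FDR was at most 0.0284. Pnpla3, a lipase of lipid droplets chosen for mention after its values were seen, had 11064, 7408 and 510 counts in the control rats, 1573, 225 and 672 in the model rats and 22, 7 and 58 in the DSS rats, with an FDR from edgeR of 0.0525 against control and 0.0509 against model, while DESeq2 called it lower in both comparisons.

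Of the 23 tested genes of the phospholipid branches, Selenoi (ethanolaminephosphotransferase, ENSRNOG00000059295), which forms phosphatidylethanolamine from diacylglycerol, was called higher in the DSS group than in control, at 74.4 ± 6.02 CPM against 48.5 ± 1.25 CPM (SD, n = 3), a log2 fold change of 0.61 (FDR 0.0093 from edgeR). The call was lost with each rat left out in turn, with library size alone, with the block and with all 9 libraries in one fit, where the FDR was at most 0.0499. In the model group Selenoi was at 55.4, 82.9 and 77.8 CPM, also above all control rats. Of the 4 tested other aquaporins 0 were called by edgeR. Aqp8 had an unadjusted p under 0.05 in the model and in the DSS group against control (FDR 0.12 and 0.0401 from edgeR). DESeq2 called Aqp8 higher in both comparisons. It was at 100 to 153 CPM in the control rats, 192 to 272 CPM in the model rats and 173 to 231 CPM in the DSS rats. Aqp5, the one of the 4 aquaporins with the largest fold change between the DSS and model groups, had a log2 value of -0.82 (FDR 0.779 from edgeR) at 1.34 ± 0.321 CPM and 2.36 ± 1.51 CPM.

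**Figure D4:**
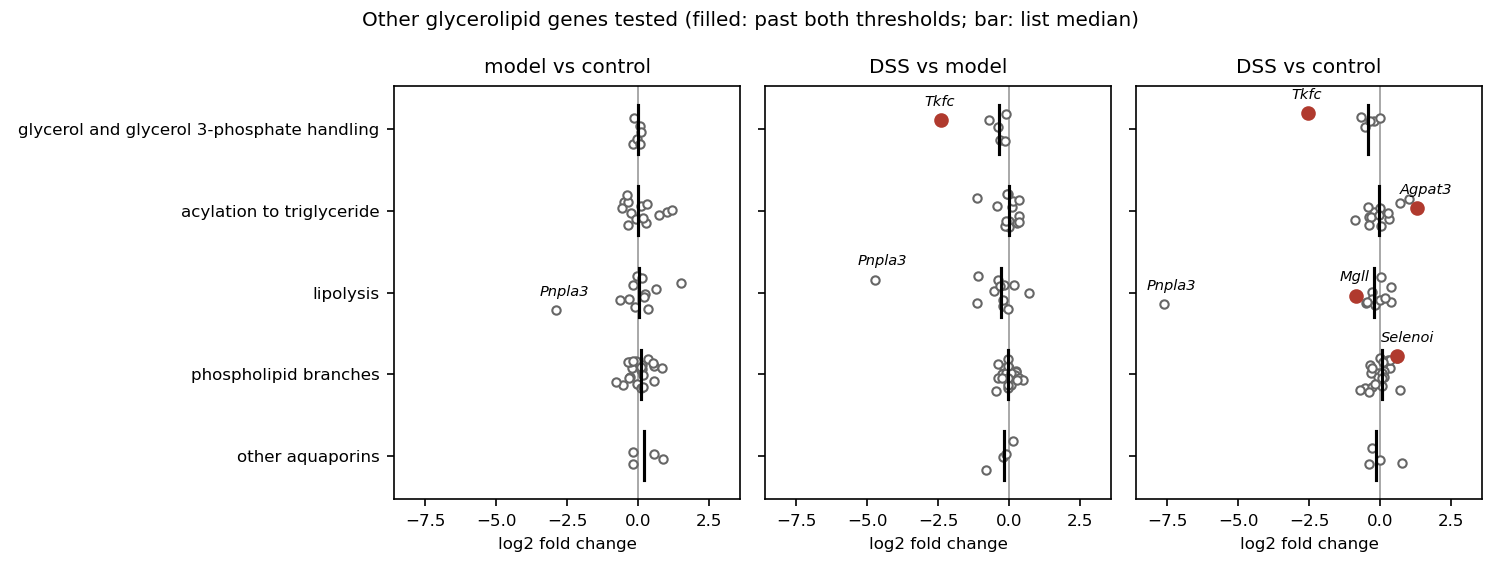
Log2 fold changes (horizontal axes) of the 59 tested genes of the 5 lists in the 3 comparisons. Each point is a gene, filled points passed both thresholds, and the black bar is the median of the list. Tkfc is called lower in the DSS group in both of its comparisons, and Agpat3, Mgll and Selenoi are called against control only. The open point far to the left is Pnpla3.

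The genes whose log2 CPM over the 9 libraries were most like those of Gk were Etfdh, Tymp, Galt, Amdhd1 and Agpat3, with Pearson's r between 0.985 and 0.991. Etfdh passes electrons from fatty acid and amino acid oxidation to ubiquinone, Tymp cleaves thymidine, Galt acts in galactose use and Amdhd1 in histidine breakdown. All of them were low in the control group and high in both fructose-fed groups, as in Etfdh at 196 ± 9.05, 298 ± 11.0 and 301 ± 14.9 CPM and Amdhd1 at 28.2 ± 6.87, 135 ± 5.82 and 157 ± 31.9 CPM in the control, model and DSS groups. This pattern follows from their choice by likeness to Gk, which was itself chosen for its rise. The points share the 3 groups and their scaling, and 115 of 12896 genes (0.892%) had an r above 0.9. With Spearman's correlation of CPM, 0 of these 5 genes were among the 5 most alike. Within the members, the r with Gk was -0.74 for Gpd1, -0.55 for Gpam and between -0.23 and 0.24 for the others that could be compared.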

How the data were processed

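The authors aligned the reads with HISAT2 to the rat genome (Rnor_6.0 in the submitters' processing notes), assigned them to exons with HTSeq 0.6.1, with strand ignored, and deposited whole-number counts per gene, without normalization. Reads from the opposite strand may therefore be counted for a gene. How reads of overlapping genes or of close copies of a gene were assigned was not examined. The table of newly assembled transcripts was left out because the sources used here give no unit for it. No rat annotation or sequence was used, so no coordinates or sequences are given, and levels were not ranked between genes (the count ratios are compared only between libraries).

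Each comparison was fitted on the 6 libraries of its groups with edgeR 4.0.16 (R 4.3.3): filterByExpr, TMM normalization, robust glmQLFit and the two-sided glmQLFTest. The thresholds (absolute log2 fold change of at least 0.5, FDR of at most 0.01) follow the paper, which names DEGseq and DESeq. Standard errors are the log2 fold change divided by the root of the F statistic, and the 95% intervals use the t distribution of the fit. Log2 CPM for correlations used a prior count of 2. The genes named are the 10 members, list genes called in any comparison (for a list with none, the one with the largest fold change between the DSS and model groups) and the 5 genes most like Gk by Pearson's r, with exceptions stated where they occur. Lpl and Aqp8 were named after their values were seen. The members and lists were chosen with earlier results of these data known. The symbols Gykl1, Aqp2 and Aqp6 of the lists were not matched. With 3 rats a group, exact permutation has a smallest p of 0.1. The tests were checked on simulated counts. Alternatives were the test of DESeq2 1.42.0, its size factors within edgeR, scaling by library size only, no filter or a filter of 10 counts in every library, a joint fit of all 9 libraries, a block for the replicate number, thinning to the smallest library, an FDR of 0.05, and leaving out each rat.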

Additional observations from a re-analysis of the deposited data

How the results depend on the processing

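The call of Gk in the DSS group against control held in every setting. Gk was chosen for its rise over the same control libraries, so this is not independent of its choice. The call of Gpd1 in that comparison was lost in some settings, and the number of called genes depended on the setting. At these depths Aqp3 and Aqp7 could not be compared. The 10 genes called between the model and control groups became 71 with no filter on low counts, 256 with DESeq2, 25 with all 9 libraries in one fit and 75 at an FDR of 0.05, and 0 to 10 with 1 rat left out (0 without control replicate 1, 2 or 3, 5 without model replicate 1 and 2 without model replicate 3). The 17 between the DSS and model groups became 11 with library size alone (4 higher, 7 lower, against 7 and 10), 38 with no filter, 147 with DESeq2 and 57 at an FDR of 0.05, and 2 to 12 with 1 rat left out (2, 6 and 4 without DSS replicates 1, 2 and 3, 9 and 4 without model replicates 1 and 3). The 187 between the DSS and control groups became 489 with no filter, 769 with DESeq2, 113 with all 9 libraries and 804 at an FDR of 0.05, and 86 to 132 with 1 rat left out (90, 87 and 113 without control replicates 1, 2 and 3, 86 and 93 without DSS replicates 1 and 3). Of the genes of the 5 lists, 0 were called between the model and control groups, 1 with no filter, 3 with DESeq2, 1 with all 9 libraries and 1 at an FDR of 0.05. Between the DSS and model groups 1 was called, 4 with DESeq2 and 0 to 1 with 1 rat left out (0 without DSS replicate 1 or 3). Between the DSS and control groups 4 were called, 9 with no filter, 11 with DESeq2, 2 with all 9 libraries, 10 at an FDR of 0.05 and 2 to 3 with 1 rat left out (2 without control replicate 2 or 3 or DSS replicate 2 or 3). The cause of these differences was not tested, beyond the looser FDR itself. Of the genes most like Gk, 0 of 5 remained with Spearman's correlation.

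The replicate numbers only name the rats. The deviations of same-numbered rats from their group means correlated between -0.232 and -0.0206, and no rat correlated best with its own number in another group. With the replicate number as a block, 0 genes were called between the model and control groups, 7 between the DSS and model groups and 104 between the DSS and control groups, with 2 list genes in the last. In the last comparison the call of Gk held with the block.

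Some uncalled fold changes changed sign. Between the model and control groups Lpin1 turned from 0.47 to -0.32 without model replicate 3, and Aqp9 from -0.03 to 0.03 without control replicate 2 and to 0.0093 without model replicate 2. Between the DSS and control groups the log2 fold change of Aqp9 was -0.068 with library size alone and -0.0050 to 0.14 with 1 rat left out, below 0 without control replicate 1. With 1 rat left out Gpd2 ranged from -0.32 to 0.096 (above 0 without control replicate 1), Lpin2 from -0.15 to 0.16 (above 0 without control replicate 2 or DSS replicate 2) and Dgat2 from -0.51 to 0.021 (above 0 without control replicate 2). Between the DSS and model groups Lpin1 ranged from -0.68 to 0.50 (above 0 without model replicate 3), Agpat3 from -0.012 to 0.23 (below 0 without model replicate 2) and Selenoi from -0.10 to 0.16 (below 0 without model replicate 1 or DSS replicate 1). Library size alone moved the median of all genes by -0.144 in the model group and -0.136 in the DSS group against control, where it called 57 genes higher and 181 lower in place of 83 and 104. With all 9 libraries in one fit, 18 genes were called higher and 7 lower in the model group against control, in place of 5 and 5.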
